A study of Rattus norvegicus with 2 samples.

Results

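Astrocytes clear the neurotransmitter glutamate from the space around neurons and convert it into glutamine, which neurons take up to make glutamate again. In rodents, uptake rests on the membrane transporters GLAST, encoded by Slc1a3, and GLT-1, encoded by Slc1a2, of which GLAST is abundant in young astrocytes and GLT-1 is gained as they mature. Glutamine synthetase, encoded by Glul, makes glutamine from glutamate and ammonia, and is also made outside the nervous system.

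The genes described here were 7 of the 25399 genes listed for each library, chosen by symbol. Slc1a3 and Slc1a2 encode the uptake transporters, and Glul and Glud1 the enzymes glutamine synthetase and mitochondrial glutamate dehydrogenase, which interconverts glutamate and 2-oxoglutarate. Slc7a11 encodes the subunit xCT of the exchanger that imports cystine and releases glutamate, Slc7a10 a transporter of small neutral amino acids such as serine, and Slc6a11 the astrocytic GABA transporter GAT-3. All 7 symbols were matched. In the astrocyte-like cells 5 of the 7 reached 20 UMIs over both libraries. Slc7a10 and Slc6a11 did not.

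The study compared WT rats with Nuc1 rats, which carry a spontaneous insertion in Cryba1, a gene for a lens crystallin that astrocytes also make. The labels give optic nerve at postnatal day 7 for both libraries, and the study's methods describe mixed primary cultures of optic nerve glia. The cells were therefore cultured cells and not an intact nerve. For astrocyte cultures the methods name younger pups, so the age at dissection and the time in culture of these cells are not clear from the sources used here. Each genotype was 1 single-cell library (10x Genomics 3′ chemistry, version 3.1), and how many animals went into it was not given in the sources used here. With 1 library per genotype no test of genotype was possible, so every Nuc1 and WT difference below is a difference between 2 libraries. Intervals are exact 95% intervals that cover counting error only. A level is the sum of UMIs (unique molecules counted) of a gene divided by all UMIs of the same cells and scaled to counts per 1000000 (CPM). A ratio beyond 2-fold in either direction was called higher or lower.

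The files held 2107 WT and 1929 Nuc1 barcodes, of which 2 were in both libraries. After filtering, 1966 WT and 1780 Nuc1 cells were kept, at median depths of 14054 and 16568 UMIs. Cryba1 had 0 UMIs in both libraries, so it could not check the labels. The Y-linked gene Eif2s3y had 3 UMIs in kept WT cells and 896 in kept Nuc1 cells, so the libraries also differed in their content of male cells, and this cannot be told apart from genotype. Clustering without the 7 genes gave 10 clusters, and cluster 3 was named astrocyte-like. It held 106 WT cells (5.39% of kept cells) and 343 Nuc1 cells (19.3%), with Gfap, the intermediate filament of astrocytes, at 6910 and 9715 CPM. All 9 astrocyte markers were present there, and their summed level was 41300 CPM in WT and 52223 CPM in Nuc1. Clusters 0, 1, 2 and 4 were fibroblast-like (1600 WT and 1187 Nuc1 cells). Cluster 4, led by Inmt and Cyp26b1, held 55 WT and 365 Nuc1 cells, so the fibroblast-like clusters are compared one by one.

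Markers of other cell types were low in the astrocyte-like cells but not absent. The 7 fibroblast markers summed to 596 CPM in WT and 544 CPM in Nuc1 with none at 0. The 8 motile-cilia markers summed to 72.7 and 125 CPM with 1 and 0 at 0, and the 13 macrophage and microglia markers to 4.30 and 3.89 CPM with 8 and 5 at 0. The 13 oligodendrocyte-lineage markers summed to 315 CPM in WT and 216 CPM in Nuc1. The neuron and mural lists summed to 826 to 898 CPM and 806 to 824 CPM, nearly all from Stmn2 and Tagln, with Snap25 and Slc17a6 at 0 in both libraries and Rgs5 at 0 and 8 UMIs. A group of 17 WT and 61 Nuc1 astrocyte-like cells carried more than 300 CPM of 4 summed fibroblast markers. Their part in the differences below was not tested beyond the values given with those cells left out.

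A 3′ library counts a molecule only where the read falls in the annotated gene, so levels are compared here between cell groups for the same gene and not between genes. In WT cells of cluster 0, Col1a1 had 5258 CPM and Col1a2, which encodes the partner chain of the same collagen, had 27.3 CPM. Whether low values of Slc1a2, Slc7a10 or Slc6a11 share the origin of that gap was not tested.

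The promoter windows below are shown for the 2 uptake transporters, which are paralogs that were both highest in the astrocyte-like cells, and for Glul and Slc7a11, whose highest levels lay outside the astrocyte-like cells. They are RefSeq windows of the rat assembly GRCr8, from 250 bases before to 50 bases after an annotated start, and the first listed window of each gene was taken (Slc1a2 and Glul had 2 windows, Slc1a3 had 3 and Slc7a11 had 1). The assembly behind the deposited counts was not given in the sources used here, and no count is tied to these coordinates. Capitals mark matches on either strand to TATAAA (the TATA box), to CCAAT, to GGGCGG (a GC box) or to TGACNNNGC (the core of the antioxidant response element).
Slc1a3 (chr2:59557759-59558058, minus strand): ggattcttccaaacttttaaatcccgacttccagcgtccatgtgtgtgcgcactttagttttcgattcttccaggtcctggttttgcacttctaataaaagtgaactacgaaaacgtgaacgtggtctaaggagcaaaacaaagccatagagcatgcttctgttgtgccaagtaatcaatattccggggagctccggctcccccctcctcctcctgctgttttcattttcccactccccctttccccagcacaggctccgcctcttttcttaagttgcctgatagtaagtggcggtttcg
Slc1a2 (chr3:109459859-109460158, plus strand): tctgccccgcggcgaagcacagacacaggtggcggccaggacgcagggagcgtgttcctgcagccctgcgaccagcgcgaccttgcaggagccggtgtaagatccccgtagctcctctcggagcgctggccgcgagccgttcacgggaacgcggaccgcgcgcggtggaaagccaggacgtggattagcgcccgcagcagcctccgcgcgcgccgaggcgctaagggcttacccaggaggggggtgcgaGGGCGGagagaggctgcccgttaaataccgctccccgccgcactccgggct
Glul (chr13:68519250-68519549, plus strand): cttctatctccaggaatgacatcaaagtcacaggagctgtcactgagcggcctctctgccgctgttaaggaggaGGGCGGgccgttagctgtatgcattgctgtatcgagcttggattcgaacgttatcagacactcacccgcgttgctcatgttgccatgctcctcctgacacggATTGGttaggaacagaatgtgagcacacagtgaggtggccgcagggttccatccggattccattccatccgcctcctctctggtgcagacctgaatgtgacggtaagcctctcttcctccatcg
Slc7a11 (chr2:136668215-136668514, minus strand): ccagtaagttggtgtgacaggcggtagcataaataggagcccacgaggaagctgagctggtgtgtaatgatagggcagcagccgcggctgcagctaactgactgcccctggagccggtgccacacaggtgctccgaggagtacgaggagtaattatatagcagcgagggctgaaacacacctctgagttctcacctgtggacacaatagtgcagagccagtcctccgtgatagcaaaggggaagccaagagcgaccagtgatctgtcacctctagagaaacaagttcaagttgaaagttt

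The windows differed in base composition. GC content was 48.3% for Slc1a3 and 71% for Slc1a2, against a median of 51.7% over the 33469 windows of the table. Slc1a2 held 1 GGGCGG, and Glul held 1 GGGCGG and 1 CCAAT read on the opposite strand. The Slc1a3 and Slc7a11 windows held none of the 4 motifs. No matches overlapped in these windows. Over the whole table, 33.1% of windows held GGGCGG, 37.5% CCAAT, 14.2% TATAAA and 12.1% TGACNNNGC. These matches describe letters in a window only.

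Slc1a3 marked the astrocyte-like cells in both libraries. Its level there was 1045 CPM in WT (95% interval 1007 to 1083, 2916 UMIs) and 1183 CPM in Nuc1 (1160 to 1206, 10347 UMIs). The motile-cilia cluster came second in both libraries, with 339 CPM in WT and 589 CPM in Nuc1. That cluster also held all 9 astrocyte markers, summed to 19843 CPM in WT and 25293 CPM in Nuc1, with Gfap at 1371 and 2630 CPM. Their part in its Slc1a3 level, or in the difference of that level between libraries, was not tested. The unnamed cluster 8, led by Ttr and Gldn, had 202 and 178 CPM. The fibroblast-like clusters ranged from 24.6 to 68.9 CPM in WT and from 22.3 to 103 CPM in Nuc1. In WT, the first 3 levels in this order were separated from the next by their intervals, and those from the fourth to the eighth overlapped their next neighbour. The macrophage-like cluster had 12 WT UMIs and 32 Nuc1 UMIs (413 CPM), of which 26 were in 1 cell. Its Nuc1 cells had a median of only 1808 UMIs, so this level was not read as expression.

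Slc1a3 was 22.6-fold higher in astrocyte-like than in pooled fibroblast-like cells of WT (log2 4.50, 4.40 to 4.60) and 16.4-fold higher in Nuc1 (log2 4.04, 3.96 to 4.12). The share of astrocyte-like cells with an Slc1a3 UMI was 99.1% in WT and 98.0% in Nuc1, where median depths were 25874 and 24012 UMIs. Among macrophage-like cells it was detected in 26.1% in WT, at a median of 8493 UMIs. With each cell thinned to 5000 UMIs, 92.5% of 106 WT cells and 92.3% of 339 Nuc1 cells still held an Slc1a3 UMI (0 and 4 cells were shallower). In thinned fibroblast-like cells the share was 19.8% in WT and 29.1% in Nuc1. There were 0.151 Slc1a3 UMIs per Gfap UMI in WT astrocyte-like cells and 0.122 in Nuc1. In the fibroblast-like clusters the ratio was 5.19 to 15.7 in WT and 1.50 to 4.80 in Nuc1. Gfap counts there were small, from 3 UMIs in WT cluster 4 to 214 UMIs in Nuc1 cluster 2. The origin of the low Slc1a3 counts in fibroblast-like cells was not tested.

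**Figure D1:**
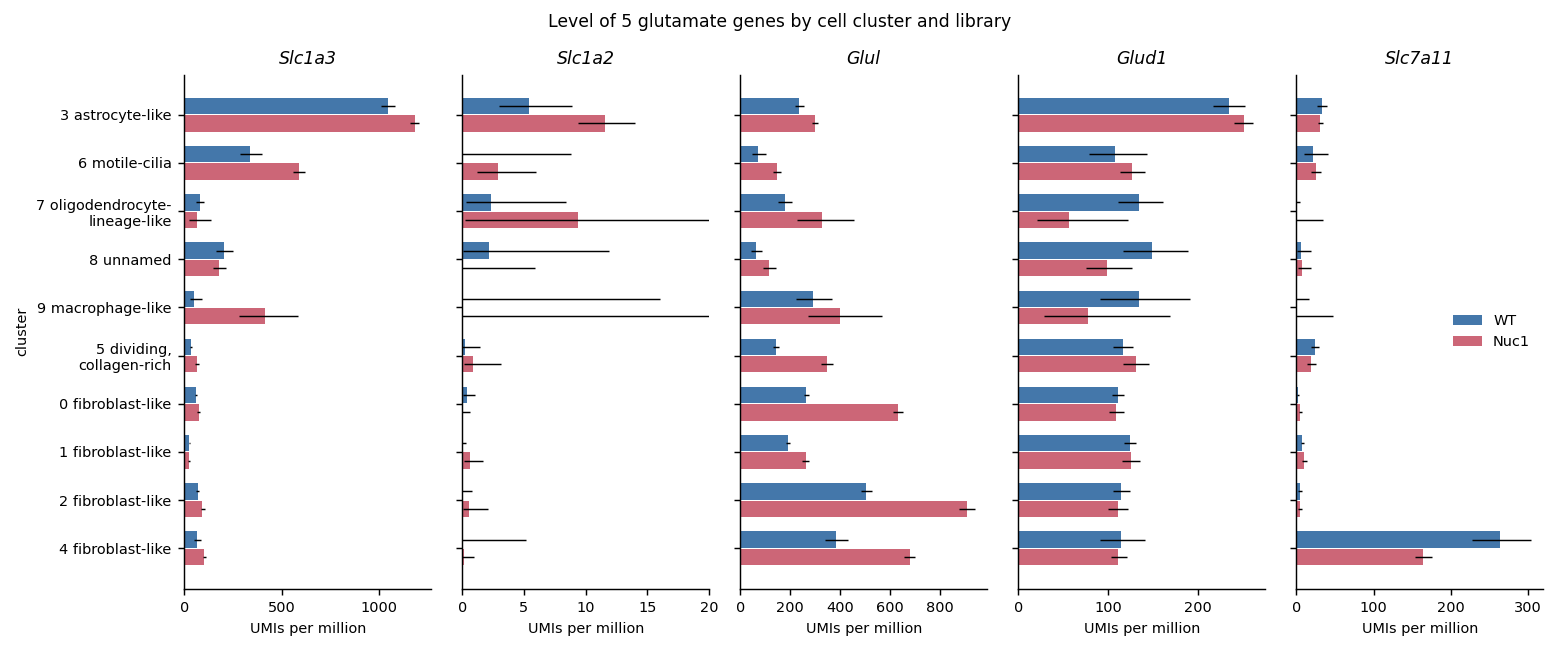
Level of Slc1a3, Slc1a2, Glul, Glud1 and Slc7a11 in CPM (x axes start at 0 and differ between genes) in each of the 10 clusters for WT (blue) and Nuc1 (red), with exact 95% counting intervals, cut at 20 CPM for Slc1a2. Slc1a3, Slc1a2 and Glud1 were highest in the astrocyte-like cluster, Glul in fibroblast-like cluster 2 and Slc7a11 in fibroblast-like cluster 4.

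Within the astrocyte-like cells the Slc1a3 level differed little between libraries. On the log2 scale, Nuc1 exceeded WT by 0.18 (0.12 to 0.24), a 1.13-fold difference. The median ratio of the 10523 genes tested in these cells was -0.12 on the log2 scale, and centring on the median of genes with at least 100 UMIs or TMM scaling shifted all ratios by 0.11 or 0.17. When cells with over 10% mitochondrial UMIs were left out of the clusters, a setting added after the data were seen, 15 WT cells and 145 Nuc1 cells remained and the Slc1a3 ratio was -0.10 (-0.25 to 0.05). The median mitochondrial share was 13.0% in WT and 10.9% in Nuc1 astrocyte-like cells. Over all kept cells, by contrast, Slc1a3 was at 133 CPM in WT and 391 CPM in Nuc1 (log2 1.55, 1.50 to 1.60), beside the larger share of astrocyte-like cells in the Nuc1 library. Slc1a2, Slc1a3 and Slc7a11 were called higher over all kept cells, where 10.3% of genes were, and no member was lower (6.21% of genes). As in any pooled sample, that total does not separate the number of astrocyte-like cells from the RNA in each.

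Single astrocyte-like cells spread widely around these levels. The Slc1a3 median over cells was 942 CPM in WT and 1033 CPM in Nuc1, and the central 80% of cells lay between 234 and 2022 CPM in WT and between 264 and 2382 CPM in Nuc1. The cell-to-cell ranges of the 2 libraries overlapped over nearly their whole width. The 10 cells with the most Slc1a3 UMIs held 23.2% of them among 106 WT cells and 9.91% among 343 Nuc1 cells. With such unlike numbers of cells these shares cannot be compared between libraries. Astrocyte-like cells with at least 3 of 7 division markers (15 WT and 9 Nuc1 cells) had less Slc1a3 than the others, 882 against 1072 CPM in WT and 851 against 1195 CPM in Nuc1, and neither pair of intervals overlapped.

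Slc1a2 counts were sparse and also concentrated in astrocyte-like cells. The WT cells held 15 UMIs (5.37 CPM, 3.01 to 8.86) and the Nuc1 cells 101 UMIs (11.5 CPM, 9.40 to 14.0). No cell held more than 3. The 1600 WT and 1187 Nuc1 fibroblast-like cells held 3 and 6 UMIs. The Slc1a2 level was 45.3-fold higher in astrocyte-like than in fibroblast-like cells of WT (log2 5.50, 3.68 to 7.93) and 39.2-fold higher in Nuc1 (log2 5.29, 4.12 to 6.77). Motile-cilia cells held 0 UMIs in WT, which at 3 counts allows up to 7.15 CPM, and 7 UMIs in Nuc1 (2.90 CPM). The oligodendrocyte-lineage-like cells held 2 and 1 UMIs, and their intervals overlapped those of the astrocyte-like cells.

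Slc1a2 was the only member called higher in Nuc1 astrocyte-like cells, among 5 with at least 20 UMIs. Its ratio was 2.15-fold (log2 1.10, 0.31 to 1.99). Of all genes tested in these cells, 3.75% were called higher in Nuc1 and 7.31% lower, and 0 of the 5 members were lower. The gene was detected in 11.3% of WT cells (12 of 106, 5.99% to 18.9%) and 22.7% of Nuc1 cells (78 of 343, 18.4% to 27.5%), against 0.188% of WT and 0.505% of Nuc1 fibroblast-like cells at medians of 13252 and 14803 UMIs. After thinning to 5000 UMIs the shares were 3.77% (1.04% to 9.38%) and 7.08% (4.59% to 10.4%), whose intervals overlap, and at 4 WT UMIs no change was read from them. The interval of the ratio did not reach 2-fold at its lower end, and with cells over 10% mitochondrial UMIs left out only 2 WT UMIs remained, for a log2 ratio of 0.89 (-1.04 to 3.98).

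Astrocyte-like cells with an Slc1a2 UMI were described against those without one. In Nuc1 the 78 cells with a UMI had 375 CPM of Glul against 275 CPM in the other 265, and 1249 against 1161 CPM of Slc1a3. In WT the 12 cells with a UMI had 273 against 231 CPM of Glul and 1206 against 1021 CPM of Slc1a3. The WT Glul intervals overlapped (222 to 333 against 213 to 251 CPM). Aqp4 was lower in Nuc1 cells with a UMI (1565 against 1689 CPM) and higher in WT ones (1883 against 1778 CPM). The oligodendrocyte-lineage marker Olig1 was at 56.2 against 39.1 CPM in Nuc1 and at 108 against 91.8 CPM in WT. The WT intervals overlapped for Olig1 (76.6 to 147 against 80.1 to 105 CPM) and for Aqp4 (1744 to 2030 against 1725 to 1831 CPM). No WT difference was therefore read for these genes. Cells with a UMI were deeper, with medians of 26288 against 23053 UMIs in Nuc1 and 29894 against 25647 in WT. The part of depth in these differences was not tested.

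Glul was not highest in the astrocyte-like cells. Its level there was 237 CPM in WT (219 to 256, 661 UMIs) and 300 CPM in Nuc1 (288 to 312, 2623 UMIs). Fibroblast-like cluster 2, led by AABR07008439.1, Cldn11 and Shisa3, had the highest level in both libraries, with 506 CPM in WT and 912 CPM in Nuc1. Cluster 4 had 385 and 680 CPM, cluster 0 had 265 and 634 CPM, and cluster 1 had 191 and 262 CPM. The lowest levels were in the unnamed cluster 8 (61.8 and 114 CPM) and the motile-cilia cluster (71.5 and 146 CPM).

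Pooled fibroblast-like cells had 1.19-fold more Glul than astrocyte-like cells in WT (log2 of astrocyte-like over fibroblast-like -0.25, -0.37 to -0.14) and 2-fold more in Nuc1 (log2 -1.0, -1.06 to -0.94). The Nuc1 ratio lay at the 2-fold line, where 4 of the other settings put Glul within 2-fold. Glul was detected in 91.5% and 87.5% of astrocyte-like cells, and after thinning in 53.8% and 57.5% of them against 62.4% and 82.5% of fibroblast-like cells. No cell type in these cultures was taken to lack Glul, so a background share was not defined. There were 40.2 to 92.3 Glul UMIs per Gfap UMI in the fibroblast-like clusters of WT and 14.7 to 34.7 in those of Nuc1. In astrocyte-like cells the ratio was 0.0343 and 0.0309. The fibroblast-like ratios rest on small Gfap counts, as few as 3 UMIs in WT cluster 4. The part of RNA from other cells in the Glul counts was not tested.

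Glul was higher in the Nuc1 library in each of the 10 clusters. The log2 ratio was 1.29 (1.13 to 1.45) in the dividing collagen-rich cluster 5, 1.26 (1.18 to 1.33) in cluster 0 and 1.03 (0.49 to 1.62) in motile-cilia cells. It was 0.85 (0.77 to 0.92) in cluster 2, 0.82 (0.65 to 1.0) in cluster 4 and 0.46 (0.36 to 0.56) in cluster 1. In the astrocyte-like cells it was 0.34 (0.22 to 0.47). The interval lay above 0 in 9 clusters, and in the macrophage-like cluster it ran from -0.20 to 1.10. Of the 8608 genes with at least 20 UMIs in each of clusters 0 to 5, 10.8% were higher in Nuc1 in all 6 at any size and 14.6% were lower in all 6. Glul was 1 of 4 members in the first group, and no member was in the second. Past 2-fold, Glul was called higher in cluster 0, where 4.09% of genes were (6.04% were lower), in cluster 5 (3.18%, with 4.3% lower) and in cluster 6 (8.1%, with 5.5% lower). No member was called in clusters 1, 2, 4 and 8, where 3.43%, 4.19%, 9.33% and 6.94% of genes were higher and 5.73%, 5.18%, 3.98% and 6.42% lower. In cluster 7 Glud1 was called lower on 6 Nuc1 UMIs (14.6% of genes were lower, 8.44% higher), and in cluster 9 Slc1a3 higher (15.2% higher, 17.2% lower).

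The Glul ratio in astrocyte-like cells moved with the choice of cells. Without cells over 300 CPM of the summed fibroblast or cilia markers, 86 WT and 264 Nuc1 cells remained, with 245 and 278 CPM of Glul and a log2 ratio of 0.18. Reclustering only cells with at most 10% mitochondrial UMIs left 27 WT and 174 Nuc1 astrocyte-like cells, with 132 and 289 CPM and a log2 ratio of 1.13, and the 15 WT and 145 Nuc1 cells of cluster 3 under the same limit had 220 and 317 CPM. Over single cells the median was 136 CPM in WT and 161 CPM in Nuc1, and the highest 10% of cells began at 506 and 725 CPM. The 10 richest WT cells held 38.9% of the WT UMIs.

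**Figure D2:**
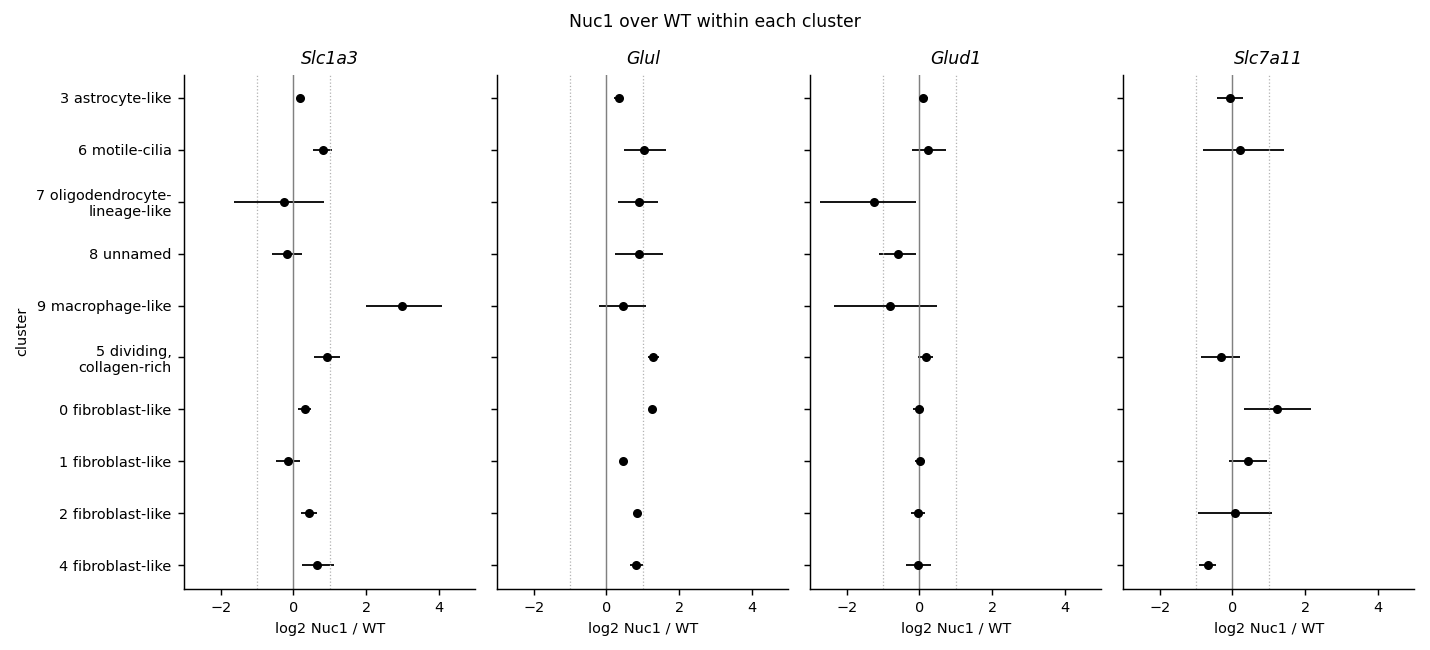
Log2 ratio of Nuc1 over WT (x axis) of Slc1a3, Glul, Glud1 and Slc7a11 in each cluster with at least 20 UMIs over both libraries and UMIs in each, with exact 95% counting intervals (dotted lines mark 2-fold). All 10 Glul points lie above 0, the Glud1 points of the astrocyte-like, fibroblast-like, dividing and motile-cilia clusters lie within -0.05 to 0.24, and Slc7a11 is at 1.22 in cluster 0 and at -0.68 in cluster 4.

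Glud1 was even among the fibroblast-like clusters and higher in astrocyte-like cells. Its level in the latter was 234 CPM in WT (217 to 253, 654 UMIs) and 251 CPM in Nuc1 (241 to 262, 2197 UMIs). All 8 values of clusters 0, 1, 2 and 4 lay between 109 and 125 CPM. The astrocyte-like level was 2-fold the pooled fibroblast-like level in WT (log2 1.0, 0.87 to 1.12, just under the line) and 2.20-fold in Nuc1 (log2 1.14, 1.05 to 1.22). Both calls changed with the setting. The WT log2 ratio ran from 0.71 to 1.04 over the other settings, and the Nuc1 ratio from 0.95 to 1.24, falling under 2-fold at resolution 0.2 and without clustering. Motile-cilia cells had 107 and 127 CPM, near the fibroblast-like range. Between libraries the astrocyte-like ratio was 0.10 on the log2 scale (-0.03 to 0.23), and in each fibroblast-like cluster the interval included 0. Dividing astrocyte-like cells had 190 CPM in both libraries, against 242 CPM in the other WT cells and 253 CPM in the other Nuc1 cells, with intervals that overlapped in both.

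Past 2-fold, Slc1a3 and Slc7a11 were called higher in astrocyte-like than in fibroblast-like cells of WT among 4 members tested, where 15.8% of all genes were, and none was lower (19.8% of genes). In Nuc1, Slc1a2, Slc1a3 and Glud1 were higher among 5 tested (14.8% of genes) and Glul was lower (24% of genes). The WT comparison left out Slc1a2, whose 15 and 3 UMIs were below the minimum. In WT, Slc1a3, Glul and Glud1 were called lower in motile-cilia than in astrocyte-like cells (15.8% of genes lower, 16.1% higher), and in Nuc1, Slc1a2, Slc1a3 and Glul were (9.15% lower, 16.8% higher).

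Slc7a11 had its highest level in fibroblast-like cluster 4. That cluster held 264 CPM in WT (228 to 304, 190 UMIs) and 164 CPM in Nuc1 (154 to 175, 932 UMIs). Astrocyte-like cells had 32.6 CPM (26.2 to 40.0, 91 UMIs) and 31.1 CPM (27.5 to 35.0, 272 UMIs). The other fibroblast-like clusters lay between 2.05 and 10.1 CPM. The dividing cluster had 23.8 and 19.0 CPM and the motile-cilia cells 21.5 and 24.8 CPM, with intervals that overlapped that of the astrocyte-like cells except for the dividing Nuc1 cells (13.8 to 25.5 CPM). No Slc7a11 UMI was counted in the oligodendrocyte-lineage-like or macrophage-like cells, which at 3 counts allows up to 3.49 and 13.0 CPM in WT. In Nuc1 the limits were 28.1 and 38.7 CPM, near the astrocyte-like level, so no difference was read from the Nuc1 counts of 0.

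Slc7a11 RNA was unevenly spread within cluster 4. It was detected in 47.3% of WT and 44.4% of Nuc1 cells (34.5% and 29.1% after thinning), against 1.66% and 4.85% in cluster 0 and 36.8% and 41.7% in astrocyte-like cells (12.3% and 12.1% after thinning). The highest 10% of cluster 4 cells began at 990 CPM in WT and 390 CPM in Nuc1. Its 10 richest cells held 88.4% of the UMIs among 55 WT cells and 33.4% among 365 Nuc1 cells. In astrocyte-like cells the highest 10% began at 72.5 and 96.4 CPM. The 10 richest of them held 61.5% of the UMIs among 106 WT cells and 20.2% among 343 Nuc1 cells, and the single richest cell 12 and 7 UMIs. Slc7a11 was therefore uneven in both groups. In cluster 4 it was detected in a larger share of cells, and the highest 10% of cells began at a higher level.

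The Slc7a11 ratio of Nuc1 over WT was -0.07 on the log2 scale (-0.42 to 0.29) in astrocyte-like cells and -0.68 (-0.91 to -0.45) in cluster 4. In cluster 0 it was 1.22 (0.32 to 2.16), from 18 WT and 29 Nuc1 UMIs, and it was called higher there together with Glul. The 4 fibroblast-like clusters pooled gave 12.3 CPM in WT and 50.6 CPM in Nuc1 (log2 2.04), and Glul and Slc7a11 were called higher in the pool (7.04% of genes higher, 5.24% lower), although no single fibroblast-like cluster had a ratio that large. Cluster 4 made up 55 of 1600 WT and 365 of 1187 Nuc1 fibroblast-like cells.

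**Figure D3:**
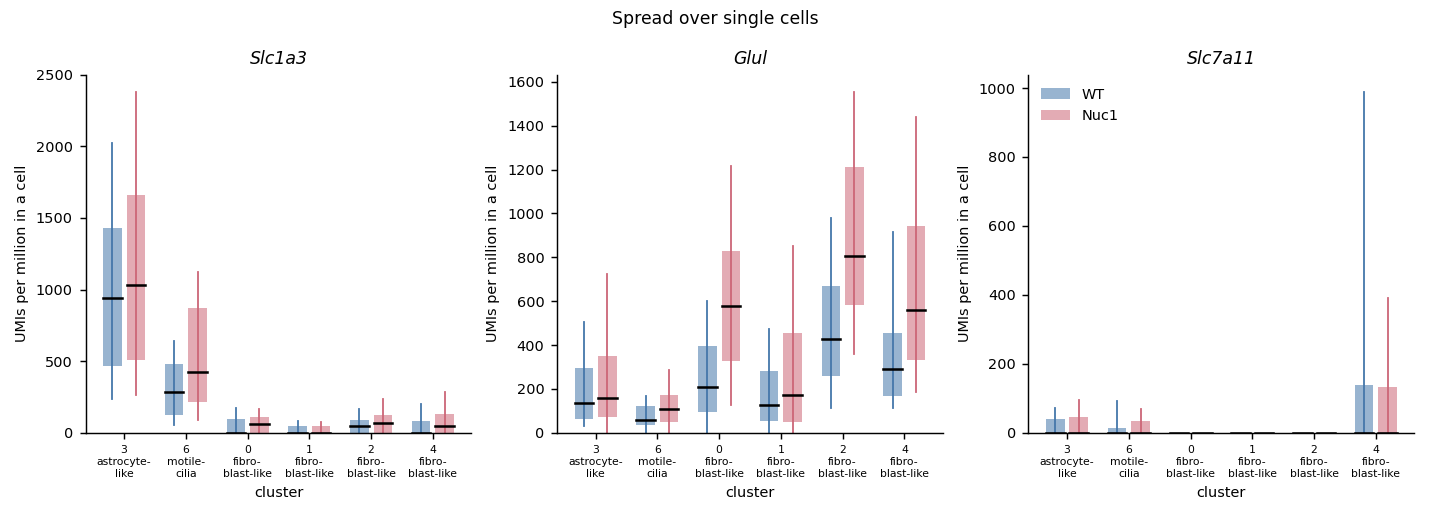
Slc1a3, Glul and Slc7a11 in single cells (y axis, CPM in a cell, from 0) of the astrocyte-like, motile-cilia and 4 fibroblast-like clusters in WT (blue) and Nuc1 (red), with the median (black line), the middle 50% of cells (box) and the central 80% (line). Slc1a3 medians were 942 and 1033 in astrocyte-like cells, Glul medians were highest in cluster 2 at 425 and 806, and the Slc7a11 median was 0 in every cluster shown.

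Slc7a10 and Slc6a11 were at the limit of detection. Slc7a10 had 3 UMIs in all kept WT cells and 1 in all kept Nuc1 cells, of which 1 in each library was in an astrocyte-like cell. Slc6a11 had 0 UMIs in WT, which allows up to 0.0884 CPM, and 2 in Nuc1, 1 in an astrocyte-like and 1 in a motile-cilia cell. Neither reached the minimum of 20 UMIs, so neither was compared between libraries here.

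Genes with a like pattern were sought over 19 pools of a cluster and a library, by Pearson correlation of log2(CPM + 1) among 10225 genes. The pools share libraries, so the values are descriptions. The genes nearest to Slc1a3 were Atp1b2, Aadat and Gcnt2 (r = 0.92 for each). Atp1b2 encodes an astrocyte subunit of the sodium pump, and Aadat an aminotransferase. Nearest to Glul were AABR07027306.1, Leprot (r = 0.85 for both) and Cryl1 (r = 0.83). Nearest to Slc7a11 were Mmp23 (r = 0.85), Cyp2j10 (r = 0.83) and the chemokine gene Cxcl12 (r = 0.81), and nearest to Glud1 were Decr1, Chst1 and Rab7b (r = 0.82 for each). Slc1a2, Slc7a10 and Slc6a11 had under 200 UMIs and were not compared. None of the 7 genes was among the 3 nearest to another.

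Lists of genes of glutamate, glutamine and cystine handling were read in the same astrocyte-like cells, where 3.75% of all genes were higher and 7.31% lower in Nuc1. The enzyme list includes Glul and Glud1, the cystine and glutathione list Slc7a11 and the GABA list Slc6a11, so their counts and medians are not of separate genes. Among glutamine and neutral amino acid transporters, 7 of 8 were tested, 1 was lower in Nuc1 (7.31% of all genes were) and none was higher. The lower gene was Slc7a5, a large neutral amino acid exchanger, at 70.9 CPM in WT and 26.9 CPM in Nuc1 (log2 -1.40, -1.68 to -1.12). In pooled fibroblast-like cells Slc7a5 was at 23.1 CPM in WT and 8.25 CPM in Nuc1. The mix of clusters in that pool differed between libraries, and its part was not tested. Slc38a3, the glutamine exporter SNAT3 of astrocytes, was at 132 and 114 CPM. Slc38a1 was at 75.6 and 69.5 CPM, and Slc7a8, a further exchanger of neutral amino acids, at 179 and 293 CPM. Slc38a2, a sodium-coupled importer, lay mainly in fibroblast-like cells, with 611 CPM in WT and 239 CPM in Nuc1 against 101 and 82.0 CPM in astrocyte-like cells.

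Of the other glutamate and aspartate carriers, 3 of 5 were tested in the SLC1 family and 2 of 7 among vesicular and mitochondrial carriers, and none was past 2-fold. Slc1a1, which encodes the transporter EAAC1, was at 8.96 and 14.3 CPM. Slc25a18, a mitochondrial glutamate carrier, was at 48.0 and 76.9 CPM (log2 0.68, 0.41 to 0.96), with 1 and 7 UMIs in all fibroblast-like cells. Of 12 enzymes of glutamate and glutamine, 10 were tested and none was past 2-fold (median log2 -0.02, all genes -0.12). Pc, pyruvate carboxylase, which replenishes the carbon drained into glutamate and glutamine, was at 71.7 and 117 CPM against 3.80 and 7.32 CPM in fibroblast-like cells.

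In the cystine and glutathione list 7 of 9 genes were tested. Slc3a2, the heavy chain that pairs with xCT, was at 844 and 1035 CPM, and Gclm, a subunit of the enzyme that starts glutathione synthesis, at 37.3 CPM in both libraries. The 1 gene called higher, where 3.75% of all genes were, was Slc3a1, with 5 WT and 67 Nuc1 UMIs. Among 12 glutamate receptor genes, 7 were tested, 2 were lower in Nuc1 (7.31% of all genes were) and none was higher. They were the AMPA receptor subunit Gria2, at 82.0 and 31.6 CPM (log2 -1.38, -1.64 to -1.12), and Grik2, with 17 and 21 UMIs. Of 8 genes of GABA uptake and metabolism 3 were tested and none was past 2-fold. Slc3a1, Grik2 and, below, Sox11 had under 100 UMIs and are named only because they make up these counts.

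**Figure D4:**
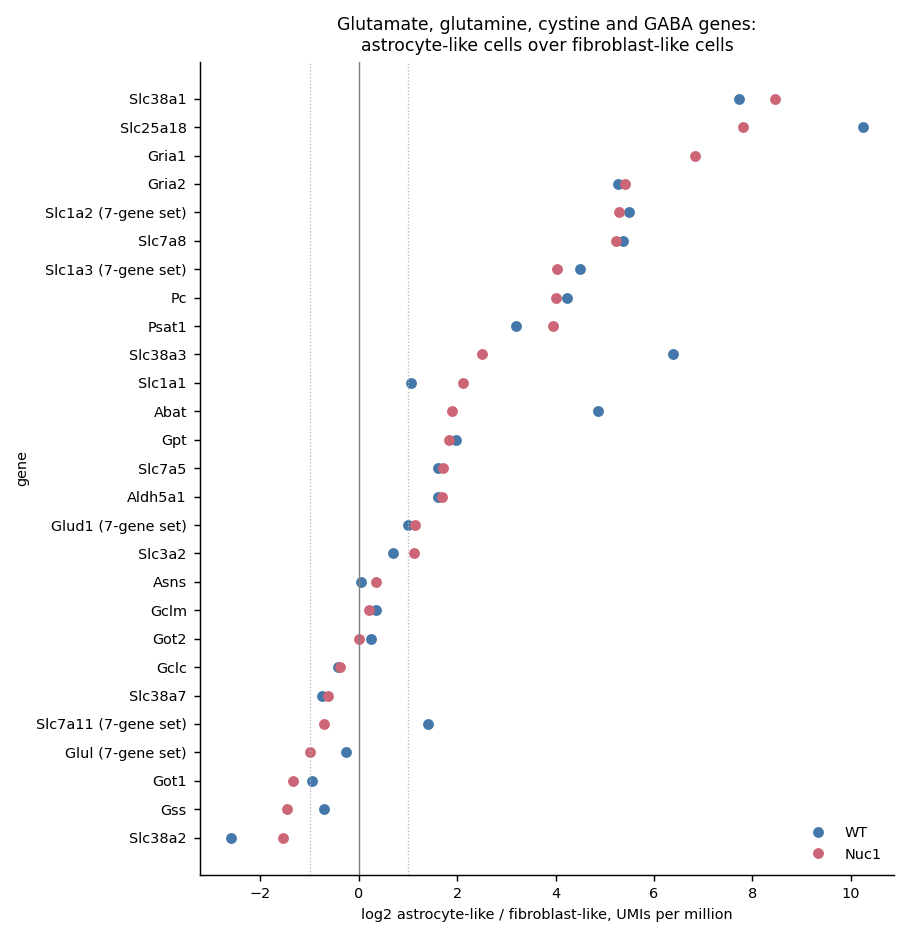
Log2 ratio of astrocyte-like over pooled fibroblast-like cells (x axis) in WT (blue) and Nuc1 (red) for genes of glutamate, glutamine, cystine and GABA handling that reached 100 UMIs there (1 such gene is left out; dotted lines mark 2-fold; a gene with 0 fibroblast-like UMIs in a library has no point there). Slc1a3 and Slc1a2 lie between 4.04 and 5.50 with Pc, Gria2 and Slc7a8 nearby, whereas Glul lies at -0.25 and -1.0 and Slc7a11 at 1.41 and -0.70.

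Genes known from mature and from immature astrocytes were read as a pair of lists, each beside the median of all tested genes (-0.12). Of 17 genes of mature astrocytes, 14 were tested and their median log2 ratio of Nuc1 over WT was 0.60. The glycoprotein gene Clu, at 1979 CPM in WT and 5770 CPM in Nuc1, and Ndrg2, at 364 and 800 CPM, were called higher (3.75% of all genes were). In pooled fibroblast-like cells Clu was at 501 CPM in WT and 1706 CPM in Nuc1, and Ndrg2 was at 13.5 and 15.7 CPM. That pool held 55 WT and 365 Nuc1 cells of cluster 4, so its mix of clusters differed between libraries. The part of this mix in the Clu difference was not tested. Aldh1l1, a folate enzyme used as an astrocyte marker, was called lower (7.31% of all genes were), at 47.6 and 22.7 CPM (log2 -1.07, -1.39 to -0.74). The water channel gene Aqp4 was at 1791 and 1658 CPM, and the connexin gene Gja1 at 889 and 788 CPM. Gja1 was higher in pooled fibroblast-like cells, at 1817 and 1414 CPM. So was Slc4a4, also on this list, at 316 and 272 CPM against 63.1 and 106 CPM in astrocyte-like cells. The other tested genes of the list were higher in astrocyte-like than in pooled fibroblast-like cells of both libraries. Kcnj10, Gjb6 and Fgfr3, also on this list, had 4, 0 and 5 WT UMIs and 2, 11 and 3 Nuc1 UMIs. They fell outside the minimum and were named after their values were seen.

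Of 15 genes of immature astrocytes and progenitors, 14 were listed in the files and 12 were tested, with a median of -0.33. None was called higher, and 3 were called lower in Nuc1 (3.75% of all genes were higher and 7.31% lower). These were the Notch target Hes1 (130 and 24.5 CPM, log2 -2.41, -2.66 to -2.17), the matrix gene Tnc (583 and 247 CPM, log2 -1.24, -1.33 to -1.14) and Sox11 (11 and 17 UMIs). In pooled fibroblast-like cells Hes1 was at 492 CPM in WT and 89.6 CPM in Nuc1, Tnc at 101 and 71.8 CPM, and Sox11 had 30 and 10 UMIs. A lower Hes1 level in Nuc1 was thus also seen in that pool, whose mix of clusters differed between libraries. The part of this mix was not tested. Sox2 was at 514 and 291 CPM and Nes at 203 and 154 CPM, while Vim and Fabp7 stood at -0.05 and 0.21 on the log2 scale. Set beside these lists, Slc1a2 at 1.10 lay above the mature-list median and Slc1a3 at 0.18, Glul at 0.34 and Glud1 at 0.10 lay below it. With the 15 WT and 9 Nuc1 dividing cells left out, Slc1a2 was at 5.03 and 11.5 CPM.

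**Figure D5:**
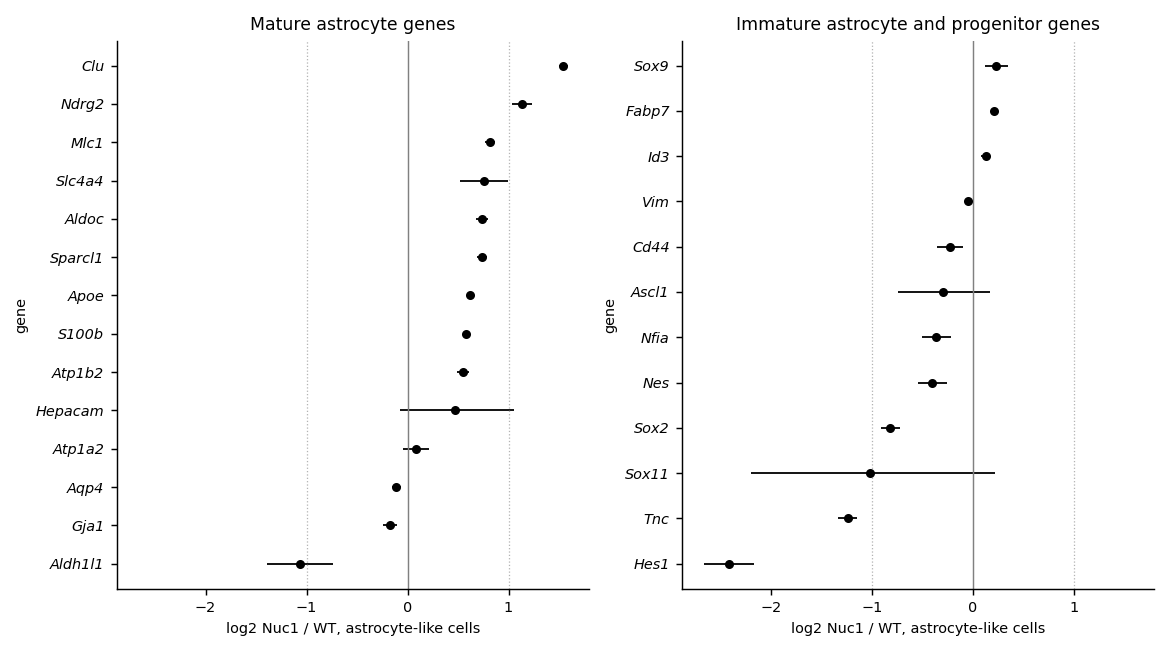
Log2 ratio of Nuc1 over WT in astrocyte-like cells (x axis) of mature (left) and immature or progenitor (right) astrocyte genes with at least 20 UMIs, with exact 95% counting intervals (dotted lines mark 2-fold). Clu and Ndrg2 lie above 1 and Aldh1l1 below -1 on the left, and Hes1, Tnc and Sox11 lie below -1 on the right.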

How the data were processed

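Mixed primary cultures of optic nerve glia from WT and Nuc1 rats (1 library each) had been profiled with a 10x 3′ kit. The deposited matrices hold UMI counts per gene and barcode, which the authors made with Cell Ranger 3.1.0 and, per the submitters' processing notes, STAR 2.7 and Seurat 3.1.0 and 3.1.1. The genome build is not given in the sources used here. Barcodes with at least 500 genes and at most 20% UMIs from 13 mitochondrial genes were kept, and 2 WT and 13 Nuc1 doublets called by Scrublet (scanpy 1.11.5; 0.102% and 0.725% of cells) were removed. Seurat 5.3.0 integrated the libraries on 2000 variable genes without the 7 genes described, with 30 components and a resolution of 0.5, and clusters were named from marker lists. Kept cells summed to 33949886 WT and 34644332 Nuc1 UMIs.

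UMIs were summed per cluster and library and given as CPM with exact Poisson intervals, shares of cells with Clopper-Pearson intervals and ratios with exact conditional intervals (95%, scipy 1.17.1), which cover counting error only. A sum of 0 was given the limit of 3 counts. Ratios past 2-fold were called for genes with at least 20 UMIs in the cells compared. With 1 library per genotype there was no test. The ratio interval was checked on simulated data. Named genes were the 7 members, list genes that reached 100 UMIs in cluster 3 (the highest and lowest ratios and those that show which cells hold a gene) and the 3 genes most like each member. Members and lists were chosen with earlier results of these data known. TMM factors came from edgeR 4.0.16. For 1 enzyme gene of the lists, the values are not reported here.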

Additional observations from a re-analysis of the deposited data

Results flagged for a closer look

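The Slc7a11 ratio of Nuc1 over WT ran in opposite directions in a pair of fibroblast-like clusters. It was 1.22 on the log2 scale in cluster 0 (18 WT and 29 Nuc1 UMIs, interval 0.32 to 2.16) and -0.68 in cluster 4 (190 WT and 932 Nuc1 UMIs, interval -0.91 to -0.45). The difference was not tested, since each genotype has 1 library. The 10 richest cells held 94.4% of the WT and 69.0% of the Nuc1 UMIs in cluster 0, and 88.4% and 33.4% in cluster 4. With only 18 WT UMIs in cluster 0 and 55 WT cells in cluster 4, these shares cannot be compared between the clusters.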

How the results depend on the processing

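No paired analysis was possible because WT and Nuc1 were single libraries. No ratio past 2-fold changed sign under any setting. Slc1a2 stayed between 0.89 and 1.33 (log2 Nuc1 over WT, astrocyte-like cells; main 1.10). Reclustering at 10% mitochondrial UMIs, which left 27 WT and 174 Nuc1 cells, gave 0.43 for Slc1a3, 1.13 for Glul, 1.34 for Slc7a11 and 0.33 for Glud1. The same limit applied to the clusters as they stood, chosen after seeing the data, left 15 WT cells and gave -0.10, 0.53 and 0.70 for the first 3. Thinning to 5000 UMIs gave 0.24, 0.48, -0.54 and 0.32 for Slc1a3, Glul, Slc7a11 and Glud1. TMM scaling gave 0.35, 0.51 and 0.27 for Slc1a3, Glul and Glud1, and centring on the median gave 0.29 for Slc1a3. Marker gates without clustering gave 0.29 for Slc1a3, and leaving out fibroblast- and cilia-rich cells gave 0.18 for Glul. Counts of members moved as well. Members higher in Nuc1 numbered 3 at 10% mitochondrial UMIs on reclustering and 0 with the limit applied later (main 1), and members lower numbered 1 with no minimum of UMIs (Slc7a10, 1 UMI in each library; main 0). Members higher in astrocyte-like than fibroblast-like WT cells numbered 1 at either 10% limit and without clustering, and 3 with no doublets left out, merged without integration, at resolution 1.0, without fibroblast- and cilia-rich cells and without dividing cells, where Glud1 passed 2-fold (main 2). In Nuc1 that count was 2 at resolution 0.2 and without clustering (main 3). Members lower in astrocyte-like than fibroblast-like Nuc1 cells numbered 0 at either 10% limit, merged without integration and without dividing cells, and 2 after thinning (main 1). At a minimum of 100 UMIs the cystine and glutathione count was 0 (main 1), the glutamate receptor count 1 (main 2) and the immature-astrocyte count 2 (main 3), because fewer genes were tested. Other causes were not tested. Thinned WT fibroblast-like cells held 0 Slc1a2 UMIs and gave no ratio.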
